A study of Mus musculus with 109 samples.

Results

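The cytosolic ribosomal protein genes encode the proteins of the large (Rpl) and small (Rps) subunits of the cytosolic ribosome. They were taken from the deposited RNA tables by symbol, as Rpl or Rps followed by a number with at most 1 letter (a, x, y or l) and further digits, together with Rplp0, Rplp1, Rplp2 and Rpsa. Rows with pseudogene names and the S6 kinases were not members. This gave 84 genes of 13902 in any table, 49 of the large and 35 of the small subunit, and 82 of them stood in all 4 tables. The rule takes in paralogues with an l or a further digit (Rpl22l1, Rpl7l1, Rpl39l, Rps27l, Rps4l, Rps3a2, Rps3a3) and leaves out some genes, such as Rpl36al, Fau and Rack1, that also belong to the ribosome.

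The study measured RNA of microglia, the resident macrophages of the brain, from mice given 2.5 mg/kg lipopolysaccharide (LPS, a bacterial cell wall component) into the peritoneum or left untreated. Il10ra encodes a subunit of the receptor for interleukin 10, an anti-inflammatory cytokine, and Tnf encodes the inflammatory cytokine TNF. Il10ra mutants carried CX3CR1-CreER, a Cre driven by the Cx3cr1 promoter that other macrophages share, with floxed Il10ra (CX3CR1-CreER:IL10Rafl/fl). They gave 9 untreated libraries, 7 at 6 h, 5 at 24 h and 5 at 48 h after LPS. Their controls carried the floxed alleles without Cre (IL10Rafl/fl) and gave 6, 6, 4 and 6 libraries at these times and 4 at day 7. Il10ra-Tnf mutants carried the same Cre with both genes floxed and gave 5 untreated libraries, 6 at 6 h and 4 at 48 h. The doubly floxed controls without Cre (IL10Rafl/fl:TNFfl/fl) gave 6, 5 and 6 libraries, and untreated C57BL/6 mice gave 4. The labels used here give neither age nor the schedule that activated CreER.

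A ribosome holds a single copy of most of these proteins, and cells make them in matched amounts. Their mRNAs are the classic TOP mRNAs: transcription starts at a C followed by an unbroken run of pyrimidines, and this 5′ end lets the mTOR pathway switch their translation on and off without a change in mRNA level. Transcription of ribosomal protein and ribosome biogenesis genes is also driven by Myc, and in macrophages LPS is known to induce Myc.

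The start sites below show this feature in members whose levels are described later. Each line gives 10 bases before and 20 bases from the annotated start of the gene, 5′ to 3′ on the gene's strand, from RefSeq on GRCm38.p6. Capitals mark a run of at least 5 pyrimidines (C or T) that begins with C within 5 bases of the start. Pyrimidines may also stand before the capitals. In the first 4 the start base is a C followed by at least 4 further pyrimidines. The next 4 have a marked run but no such C at the start base, which in Rpl7a is another pyrimidine inside the run, and Rpsa has no marked run.
Rpl15 (chr14:18270967-18270996, minus strand): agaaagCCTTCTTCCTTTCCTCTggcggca
Rps18 (chr17:33955646-33955675, minus strand): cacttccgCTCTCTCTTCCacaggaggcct
Rps6 (chr4:86857348-86857377, minus strand): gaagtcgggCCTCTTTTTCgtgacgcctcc
Rps27 (chr3:90213629-90213658, minus strand): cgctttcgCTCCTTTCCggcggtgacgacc
Rpl13a (chr7:45128726-45128755, minus strand): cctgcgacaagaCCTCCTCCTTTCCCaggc
Rpl7a (chr2:26910797-26910826, plus strand): ctcttCTTTCTTTCTCCagcagccgagcaa
Rpl22l1 (chr3:28805498-28805527, plus strand): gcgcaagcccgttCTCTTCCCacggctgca
Rps2 (chr17:24720053-24720082, plus strand): gtcgagatctcgcgCTTCTTggagcactat
Rpsa (chr9:120127756-120127785, plus strand): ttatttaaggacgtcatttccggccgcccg

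The promoter table held 61 of the 84 members. Starts were picked for the longest run in all genes alike, so a gene with more annotated starts had more chances to match. At least 5 pyrimidines counted from a C at the start base stood in 13 of the 61 (21.3 percent), against 813 of 27025 genes in the whole table (3.01 percent). A run beginning within 5 bases of the start stood in 29 of the 61 (47.5 percent), against 20.6 percent of all genes. In a list of 21 other TOP-type translation genes, 4 of the 15 with an entry had the run at the start base. None of 36 ribosome biogenesis genes and none of 64 mitochondrial ribosome genes with an entry had it there. A match describes these letters at an annotated start; where these microglia start transcription was not measured.

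The values are normalised reads of 3′ tag libraries, in which only the 3′ end of an mRNA is read, and recovered reads ran from 540642 to 2489084 per library. Each value is relative to the rest of its library, so fewer cells of a type and less RNA per cell cannot be told apart. Over all times Il10ra had 15.9 to 123.6 normalised reads in the 26 Il10ra mutant libraries and 268 to 745 in the 22 control libraries of the same table. In the Il10ra-Tnf table Il10ra had 7.14 to 76.4 reads in mutants and 237 to 533 in doubly floxed controls, and Tnf at 6 h had 1.43 to 31.1 reads in mutants and 172 to 603 in controls. All 10 microglia markers listed were present, and together they took 0.917 to 3.82 percent of the reads of a library. At 48 h, 1 further library filed under the doubly floxed controls carries labels of 2 genotypes and entered no comparison. The data column of untreated Il10ra-Tnf mutant replicate 4 has the word mistake in its name. Its labels name a single genotype, and it was kept. In 5 libraries mitochondrial transcripts took under 0.5 percent of the reads. Of these, the library in untreated Il10ra controls, the 2 at 6 h and the 1 at 48 h held the lowest shares of ribosomal protein reads of their groups (4.09, 4.95, 5.00 and 6.10 percent), and the fifth, in untreated Il10ra-Tnf mutants, ranked 4 of 5 (4.67 percent). Their part in the results was not tested beyond the values without them given below.

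After LPS the ribosomal protein genes together took a larger share of the reads of microglia. In Il10ra mutants this share was 5.23 ± 0.34 percent without LPS, 6.66 ± 0.67 at 6 h, 8.39 ± 0.74 at 24 h and 8.84 ± 0.80 at 48 h (mean ± SD over libraries). In Il10ra controls it was 5.21 ± 0.65 percent without LPS, 6.40 ± 1.17 at 6 h, 7.96 ± 0.77 at 24 h, 7.50 ± 0.80 at 48 h and 6.29 ± 0.68 at day 7. At 24 h and 48 h every library of either genotype lay above every untreated library of the same genotype. At 6 h the mutant libraries all lay above the untreated ones, while the controls overlapped. The control mean at 6 h was 5.70 percent in the experiment labelled AS_2nd_exp, against 4.96 without LPS there. It was 7.09 percent in the experiment labelled Anat_LPSchallenged, which held no untreated controls.

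**Figure D1:**
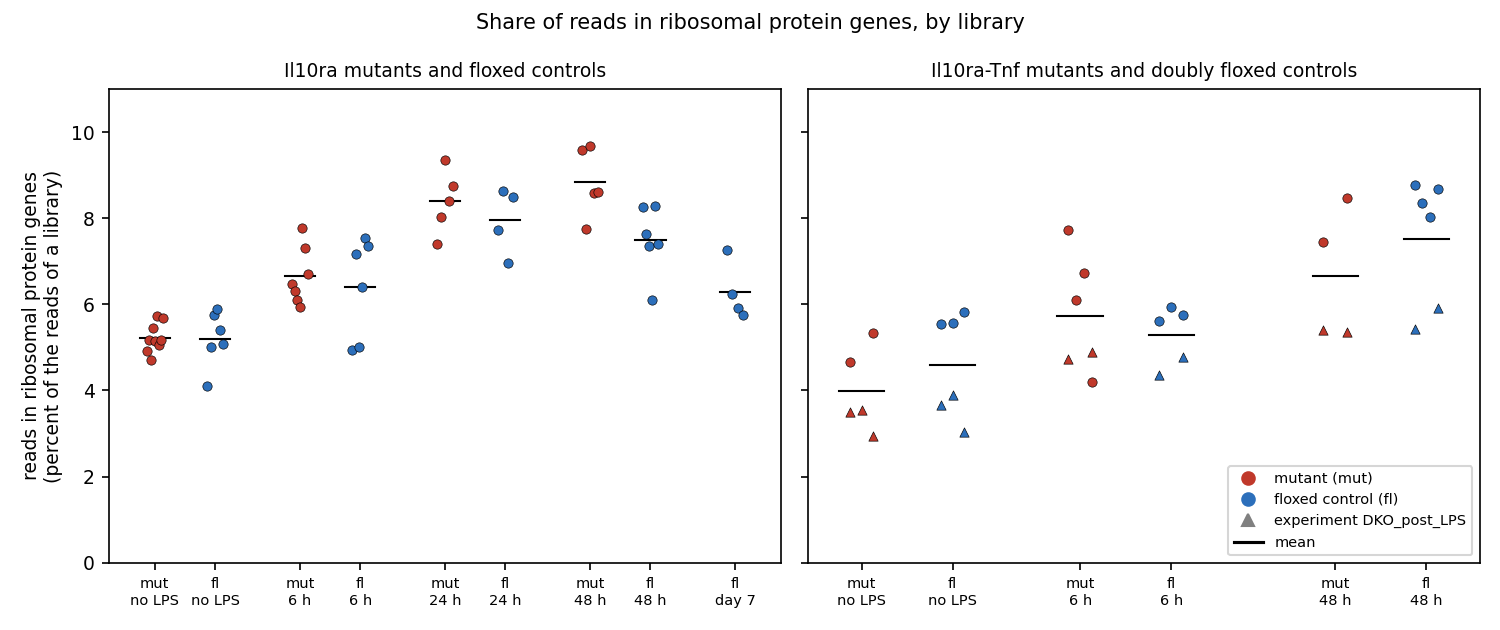
Share of each library's reads in the ribosomal protein genes (vertical axis, percent), by genotype and time after LPS, with the Il10ra mutants and controls on the left and the Il10ra-Tnf mutants and doubly floxed controls on the right; each point is a library and each line a mean. Mutant libraries at 24 h and 48 h on the left sit above all 9 untreated mutant libraries, and the triangles on the right, from the experiment labelled DKO_post_LPS, have the lower mean in each group.

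In Il10ra mutant microglia many ribosomal protein genes were higher after LPS at 6 h, 24 h and 48 h. At 6 h, 64 of 82 tested members rose and 0 fell, against 26.5 percent of all genes higher and 28.6 percent lower (55.1 percent in either direction). At 24 h, 72 rose and 1 fell, against 26 percent of all genes higher and 27.4 percent lower. At 48 h, 60 rose and 0 fell, against 17.7 and 17.9 percent of all genes. Calls are adjusted p under 0.05 by limma with Benjamini-Hochberg adjustment over all genes tested. The median log2 fold change of the members was 0.55, 0.74 and 0.77 at the 3 times, against −0.03, 0.00 and −0.01 for all genes, so the typical member rose by less than 2-fold. At 6 h the fold changes of all 82 were above 0, the lowest at 0.10.

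In mutants members of both subunits rose. At 48 h, 35 of 47 large-subunit members and 25 of 35 small-subunit members rose, with medians of 0.74 and 0.78. Within the experiment AS_2nd_exp 36 members rose and 0 fell at 6 h, with 40.3 percent of all genes called in either direction, and 30 rose and 0 fell at 24 h, with 25.8 percent of all genes called. Within Anat_LPSchallenged 64 rose and 0 fell at 6 h (35.1 percent of all genes called), and 74 rose and 1 fell at 24 h (40.4 percent). At 48 h the fold changes rest on the 3 libraries of AS_3rd_LPS, within which 65 rose and 0 fell (43 percent of all genes called), because the other 2 came from an experiment with no untreated mutants in that table. Microglia markers were lower in the same comparisons, 8 of 10 at 6 h and 10 of 10 at 24 h and 48 h, and their summed share was 0.917 to 1.47 percent at 48 h and 2.95 to 3.47 percent without LPS. Of 6 tested monocyte markers 5 were higher at 6 h and 3 at 48 h, and 1 was lower at each of these times (Ccr2 at 6 h, log2 −1.77, adjusted p = 0.000138). Their summed shares were 0.00244 to 0.0238 percent at 6 h, 0.00240 to 0.0150 percent at 48 h and 0.000849 to 0.00330 percent without LPS. Of 4 tested erythroid markers 3 were higher at 6 h, with summed shares of 0.000278 to 0.0362 percent at 6 h and 0 to 0.0189 percent without LPS. At 48 h, 4 of 9 tested neutrophil markers were higher, with summed shares of 0.00283 to 0.120 percent at 48 h and 0.000103 to 0.0522 percent without LPS. The part of these marker changes in the result was not tested.

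In control microglia ribosomal protein genes rose as well; these counts come from another table with fewer libraries, and the genotypes are compared directly further on. At 6 h, 25 of 82 members rose and 0 fell, against 20.4 percent of all genes higher and 21.1 percent lower. At 24 h, 43 rose and 1 fell, against 14.2 and 15 percent of all genes. At 48 h, 33 rose and 0 fell, against 11.1 and 7.9 percent. The medians were 0.27, 0.61 and 0.45 on the log2 scale, against −0.05, 0.01 and −0.02 for all genes. The comparisons at 6 h and 24 h share the 3 untreated libraries of AS_2nd_exp. All control libraries at 48 h came from AS_3rd_LPS, so the fold changes at 48 h rest on the 3 untreated libraries of that experiment. Anat_LPSchallenged gave 3 of the control libraries at 6 h and 1 at 24 h but no untreated control. The fold changes at these times therefore rest mainly on AS_2nd_exp, whose 6 h libraries include the 2 of low mitochondrial share. Within AS_2nd_exp 14 members rose and 0 fell at 6 h, with 29.3 percent of all genes called in either direction, and 19 rose and 0 fell at 24 h, with 17.3 percent of all genes called. Within AS_3rd_LPS 46 rose and 0 fell at 48 h, with 30.2 percent of all genes called. Without the libraries of low mitochondrial share 50 passed at 48 h, and without the second untreated library 29 passed at 24 h. Microglia markers were lower here too, 8 of 10 at 6 h, 9 of 10 at 24 h and 5 of 10 at 48 h, with summed shares of 1.33 to 2.07 percent at 24 h, 2.13 to 2.50 percent at 48 h and 3.52 to 3.74 percent without LPS. Of 7 tested monocyte markers 4 were higher and 1 lower at 6 h, with summed shares of 0.00518 to 0.0140 percent at 6 h and 0.00154 to 0.00344 percent without LPS; their part in the result was not tested.

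**Figure D2:**
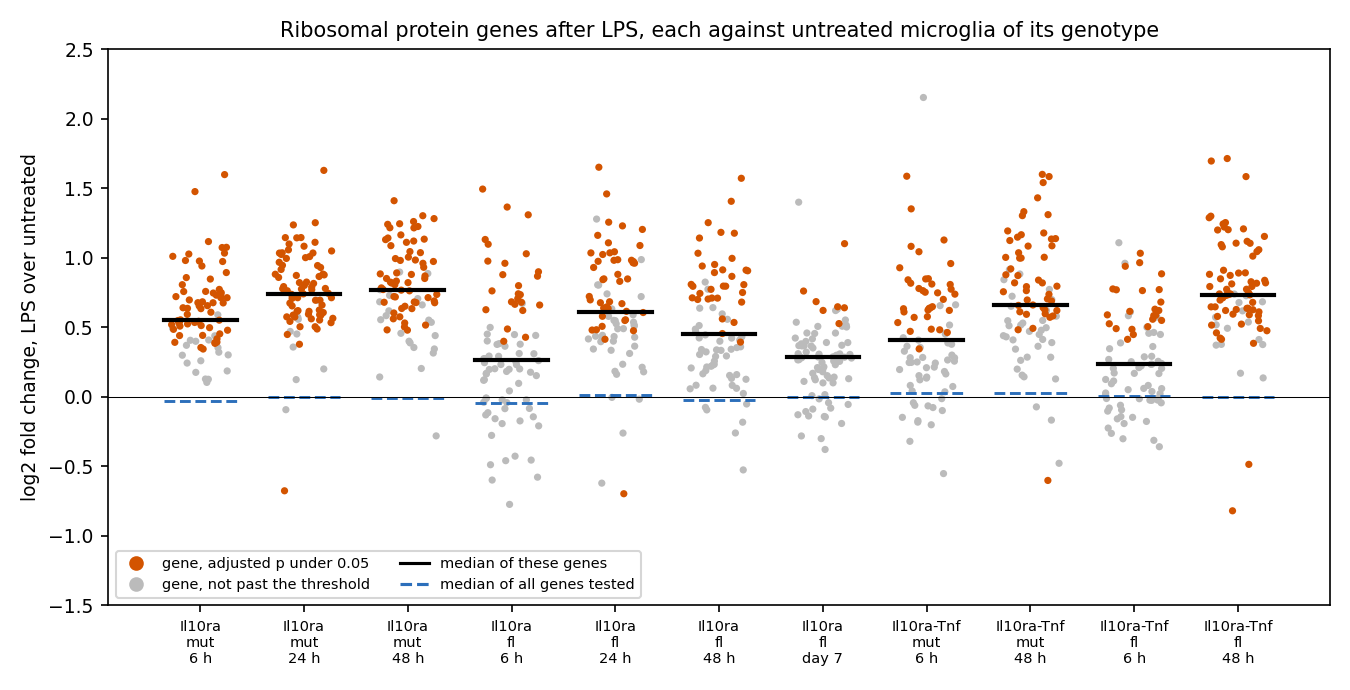
Log2 fold change after LPS over untreated microglia of the same genotype (vertical axis) for every tested ribosomal protein gene, by genotype and time; orange points passed an adjusted p under 0.05, black lines are medians of these genes and dashed lines medians of all genes. The members lie mostly above 0 in each column, with medians of 0.55, 0.74 and 0.77 in Il10ra mutants, while the medians of all genes stay near 0.

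The Il10ra-Tnf table has to be read by experiment, because its 2 experiments measured many ribosomal protein genes at different levels. Averaged over the groups, 27 of 83 members (32.5 percent) were more than 4-fold (2 on the log2 scale) lower in DKO_post_LPS than in AS_DKO_LPS_2ndexp. Only 36 of all 11633 genes (0.309 percent) were that much lower, and 27 of these 36 were members. The small-subunit gene Rps29 averaged 68.8 normalised reads in DKO_post_LPS and 3631 in the other experiment, and Rps27a, which is made as a fusion with ubiquitin, averaged 36.7 and 711. Rplp0, Rps19 and Rpl13a differed by less than 0.4 on the log2 scale (Rpl13a, 118 and 101 reads), and Rpl13 was the member highest in DKO_post_LPS relative to the other experiment (1385 and 667 reads, log2 1.08). Rps2 stood at 9.75 to 47.1 reads in all 14 libraries of DKO_post_LPS and at 10.4 to 1107 in the other experiment, where 9 of 18 libraries had under 100. Pseudogene rows of ribosomal protein genes took 0.138 to 0.279 percent of the reads in DKO_post_LPS and 0.0476 to 0.110 percent in the other experiment. The cause of this difference between the experiments was not tested. It was noticed in the values, and the 4-fold limit was set afterwards, so these counts are a description.

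**Figure D3:**
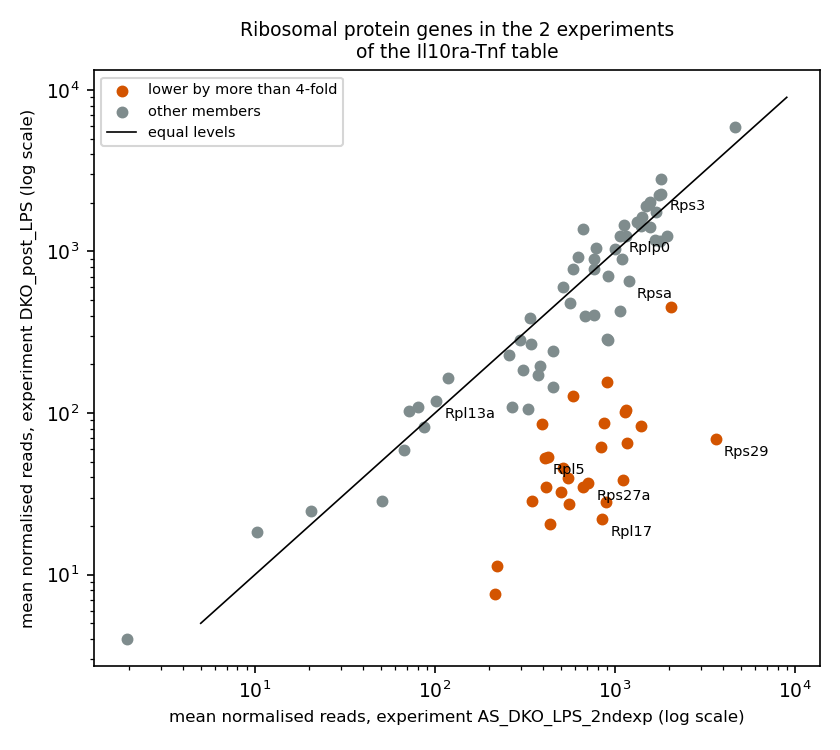
Mean normalised reads of each ribosomal protein gene in the experiment DKO_post_LPS (vertical axis, log scale) against AS_DKO_LPS_2ndexp (horizontal axis, log scale), averaged over the groups; the line marks equal levels. The 27 orange genes lie more than 4-fold below the line, among them Rps29 (68.8 and 3631 reads), while Rplp0 and Rpl13a lie near it.

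With the experiment as a term of the model, ribosomal protein genes also rose after LPS in microglia of Il10ra-Tnf mutants. In Il10ra-Tnf mutants 35 of 83 members rose and 0 fell at 6 h, against 22.5 percent of all genes higher and 21.5 percent lower. At 48 h, 47 rose and 1 fell, against 11.3 and 7.11 percent of all genes. In the doubly floxed controls 23 rose and 0 fell at 6 h, against 21.4 percent of all genes higher and 21.4 percent lower, and 66 rose and 2 fell at 48 h, against 13.7 and 9.99 percent. The medians at 48 h were 0.66 in mutants and 0.73 in controls, against 0.03 and 0.00 for all genes.

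Members rose at 48 h within each experiment. In the mutants 24 rose and 0 fell within DKO_post_LPS (2 against 3 libraries), and 23 rose and 1 fell within AS_DKO_LPS_2ndexp (2 against 2), with medians of 0.65 and 0.72; 7.91 and 10.6 percent of all genes were called in either direction. In the controls at 48 h, 40 rose and 0 fell within DKO_post_LPS, and 34 rose and 2 fell within AS_DKO_LPS_2ndexp, with medians of 0.79 and 0.66 (12.5 and 15.7 percent of all genes called). In the mutants at 6 h the medians were 0.61 within DKO_post_LPS and 0.33 within AS_DKO_LPS_2ndexp, with 35 and 18 members higher and 0 lower (25.9 and 37.2 percent of all genes called). In the controls at 6 h they were 0.53 and −0.02, with 26 and 11 members higher and 0 lower (23.4 and 36.6 percent of all genes called); the difference between experiments was not tested. For the members that were not more than 4-fold lower in DKO_post_LPS, the share of reads in mutants was 5.21 percent at 48 h and 3.20 percent without LPS in that experiment, and 5.39 and 3.37 percent in the other. In the controls it was 5.48 percent at 48 h and 3.40 percent without LPS in DKO_post_LPS, and 5.81 and 3.79 percent in the other. Microglia markers were lower in these comparisons, 9 of 10 in each genotype at 6 h and 6 of 10 in mutants and 7 of 10 in controls at 48 h. Of 7 tested monocyte markers 5 were higher in mutants and 3 in controls at 6 h, and 2 in each at 48 h. Monocyte markers together took 0.0117 to 0.0287 percent of the reads at 6 h in mutants, against 0.00100 to 0.00462 percent without LPS, and 0.00653 to 0.0578 percent at 6 h in controls, against 0.000761 to 0.00323 percent. The summed microglia share in mutants was 1.32 to 1.85 percent at 6 h, 1.89 to 2.17 percent at 48 h and 3.09 to 3.54 percent without LPS, and in controls 1.52 to 1.97 percent at 6 h, 1.98 to 2.32 percent at 48 h and 3.39 to 3.82 percent without LPS; their part in the result was not tested.

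At 48 h, 19 of the 82 members tested in each table were higher in all 4 genotypes, against 3.94 percent of 10840 genes. They included Rpl3, Rpl4, Rpl14, Rpl29, Rpl32, Rpl36a, Rpl37, Rpl37a, Rpl41, Rplp0 and Rplp1 of the large subunit, and Rps18, Rps19, Rps20, Rps26, Rps28 and Rpsa of the small subunit. Of the 82, 73 had a fold change above 0 in all 4, against 21.9 percent of all genes. At 6 h, 14 were higher in all 4, a share close to the 13.5 percent of all genes. The groups compared in the 4 genotypes share no libraries. The model of the Il10ra mutants also held Il10ra controls, and both Il10ra-Tnf genotypes shared a model. Experiment terms and the estimate of spread were common within a model, so the 4 results are not fully independent.

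Rpsa, a small-subunit protein also known as the laminin receptor, was among the 4 largest rises in most LPS comparisons. In Il10ra mutants it had 461 to 842 normalised reads without LPS (median 609, n = 9). The LPS libraries had 1119 to 1461 reads at 6 h (median 1323, n = 7), 1441, 1539.8, 1550.2, 1743 and 1761 at 24 h, and 1334, 1455, 1461, 1624 and 1780 at 48 h. No LPS library reached as low as an untreated one. The log2 fold changes were 0.98 ± 0.12, 1.25 ± 0.13 and 1.41 ± 0.17 (SE; limma, adjusted p = 1.08e-09, 3.14e-11 and 2.91e-09).
In Il10ra controls Rpsa averaged 1572 ± 273 reads at 6 h, 1888 ± 297 at 24 h and 1844 ± 199 at 48 h, against 642 ± 114.02 without LPS, and the groups did not overlap at any of these times. In the Il10ra-Tnf table it averaged 1212 ± 497 reads at 48 h in mutants, against 435 without LPS (log2 1.43), and 1515 in doubly floxed controls, against 439 (log2 1.71).
No genotype comparison called Rpsa.

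**Figure D4:**
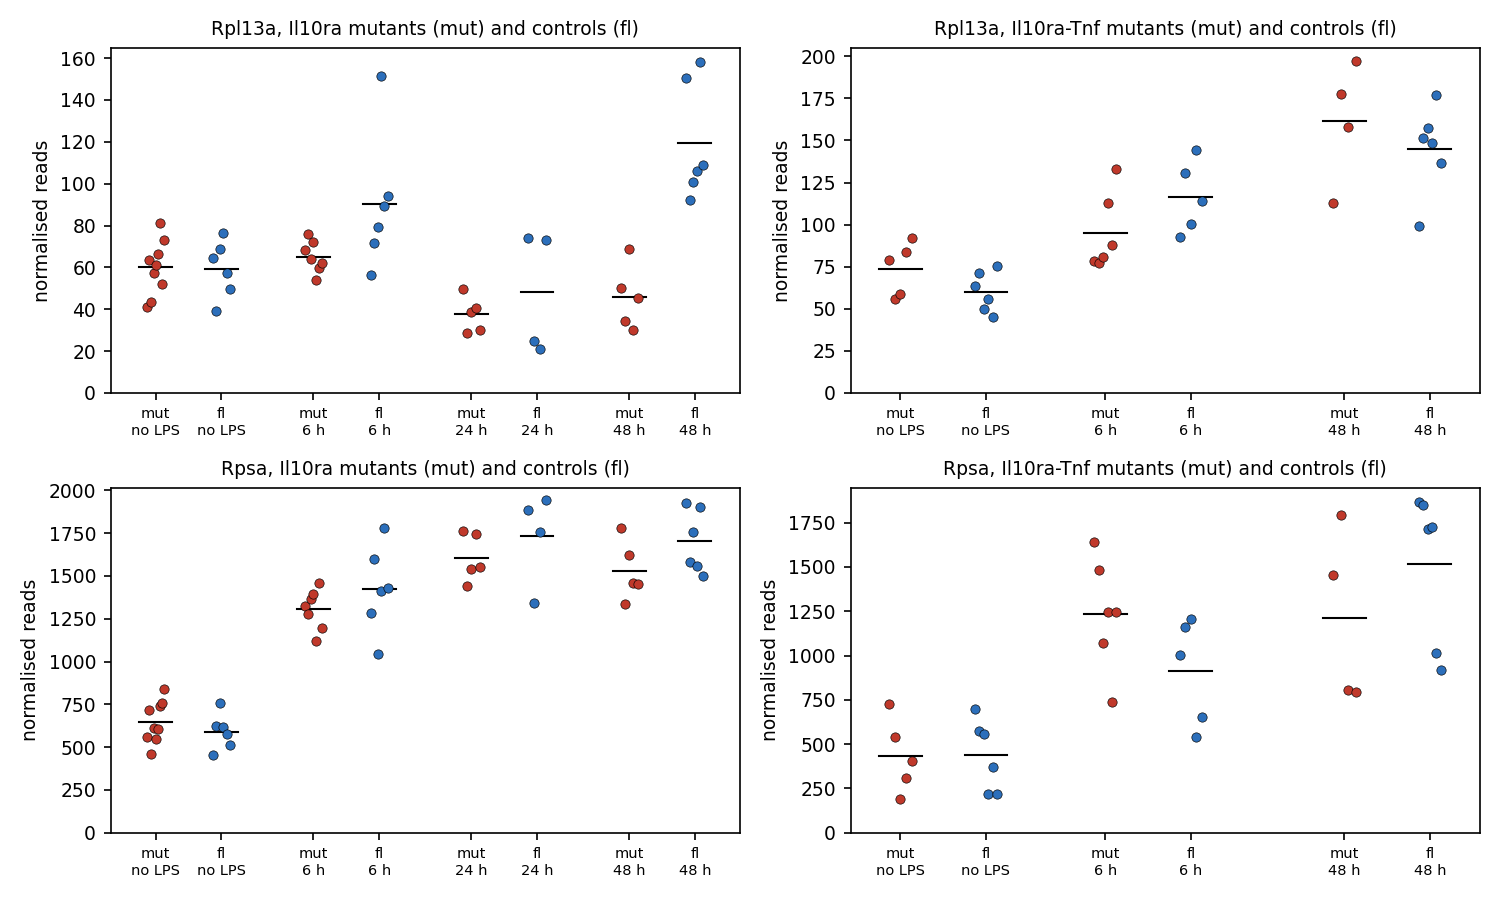
Normalised reads (vertical axis) of Rpl13a (top) and Rpsa (bottom) in every library by genotype and time, from the Il10ra mutant table (left) and the Il10ra-Tnf table (right); points are libraries and lines means. At 48 h the 5 Il10ra mutant libraries of Rpl13a lie at 30.2 to 69.0 reads, below all 6 controls at 92.3 to 158.1, while Rpsa rises in each genotype.

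The acidic stalk of the large subunit, which recruits translation factors, is made of Rplp0, Rplp1 and Rplp2. In Il10ra mutants Rplp0 averaged 1535 ± 194 reads at 48 h, against 733 ± 116.2 without LPS (log2 1.13 ± 0.15, adjusted p = 3.4e-08). Rplp1 averaged 6158 reads, against 3785 (log2 0.56 ± 0.19, adjusted p = 0.018), and Rplp2 2898, against 1666 (log2 0.77 ± 0.21, adjusted p = 0.00305). In Il10ra controls at 48 h Rplp0 averaged 1549 ± 215 reads, against 720.5 ± 105.6 (log2 1.25 ± 0.14, adjusted p = 1.55e-07). In those controls Rplp2 had 2833 reads, against 1664, which missed the threshold (log2 0.60 ± 0.23, adjusted p = 0.0667).

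Rpl5 and Rpl11 bind the 5S ribosomal RNA and, when free of the ribosome, the p53 regulator Mdm2. Rpl11 rose to 990 ± 328 reads in Il10ra mutants at 48 h, against 660 ± 173 without LPS (log2 0.64 ± 0.16, adjusted p = 0.00116). Rpl5 rose to 459 ± 67.7 reads, against 243 ± 35.4 (log2 0.77 ± 0.15, adjusted p = 8.67e-05). In Il10ra controls at 48 h Rpl5 had 289 ± 44.0 reads, against 285 ± 32.9 (log2 0.02 ± 0.15, adjusted p = 0.934), although it had risen there at 6 h to 463 ± 65.1 reads (log2 0.74 ± 0.16, adjusted p = 0.000553).

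Rps6, the substrate of the S6 kinases, and Rpl15 gave large fold changes from low values. Rps6 averaged 114.5 ± 21.5 reads in Il10ra mutants at 6 h, against 53.5 ± 23.6 (log2 1.60 ± 0.33, adjusted p = 6.19e-05), and its untreated mutant libraries ran from 12.0 to 88.2 reads. Rpl15 in the mutants at 48 h had 6.21, 9.85, 54.4, 89.8 and 112.04 reads, a spread that overlaps the 9.68 to 55.9 reads without LPS. Its call there (log2 1.24 ± 0.46, adjusted p = 0.0283) rests, like every mutant fold change at 48 h, on the 3 libraries of AS_3rd_LPS. Rps19, which is mutated in some patients with Diamond-Blackfan anaemia, rose to 2083 ± 317 reads in the mutants at 48 h, against 890 ± 103 (log2 1.28 ± 0.16, adjusted p = 1.27e-08).

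Several ribosomal proteins have a close paralogue, and members of a pair did not always move alike. Rpl22l1 averaged 145 ± 12.6 reads in doubly floxed controls at 48 h, against 59.3 ± 8.08 without LPS (log2 1.30 ± 0.32, adjusted p = 0.00216). Its partner Rpl22 averaged 726 ± 96.4, against 492 ± 55.9 (log2 0.59 ± 0.13, adjusted p = 0.00058). The difference within a pair was not tested.
Rps27l, known as a p53 target, had 106.7, 136, 137.5, 155 and 206 reads in Il10ra mutants at 48 h, against 43.5 to 69.2 without LPS (median 54.7; log2 1.04 ± 0.22, adjusted p = 0.000139). These groups did not overlap. Its partner Rps27 averaged 773 ± 166 reads, against 474.4 ± 131, and missed the threshold (log2 0.62 ± 0.26, adjusted p = 0.0552).
Rps4l and Rpl7l1 were among the few members that fell at 48 h. At 6 h neither fell. Rpl7l1 was then called higher in doubly floxed controls and Il10ra mutants, and Rps4l in Il10ra-Tnf mutants. Rps4l had 32.5 to 67.1 reads in doubly floxed controls at 48 h (median 50.3), against 66.8 to 111.7 without LPS (median 93.8), groups that overlap only at the edge (log2 −0.82 ± 0.17, adjusted p = 0.000332). Rps4x, the main form of that protein, averaged 440.5 ± 166 reads there, against 268 ± 115.9 (log2 0.58 ± 0.17, adjusted p = 0.0115). Rpl7l1 had 36.5 to 57.3 reads in these controls at 48 h (median 46.3), against 55.6 to 77.7 without LPS (median 62.9; log2 −0.49 ± 0.15, adjusted p = 0.0175).
Rpl39l was in the tables but too low to be tested. Genes of this family have near-identical copies, so reads of a member and its copies may have been divided by the authors' counting.

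In microglia without LPS no member was called between genotypes. In Il10ra mutants against controls 0 of 82 members were called by limma, 1 had an unadjusted p under 0.05, and edgeR and DESeq2 called 0. Of all genes 0 percent were higher and 0.00865 percent lower. Of the 82 fold changes 28 were above 0, with a median of −0.04 against 0.01 for all genes. In Il10ra-Tnf mutants against doubly floxed controls 0 of 83 were called, with 8 at an unadjusted p under 0.05, against 0 percent of all genes higher and 0.0258 percent lower; edgeR and DESeq2 called 0 here too. Of these 83 fold changes 23 were above 0, with a median of −0.11 against −0.01 for all genes.

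After LPS few members differed between the Il10ra genotypes past the threshold at 6 h and 24 h. At 6 h, 6 of 82 were higher in mutants than in controls and 0 lower, against 1.89 and 1.42 percent of all genes (3.31 percent in either direction). Of the 82, 74 fold changes were above 0, with a median of 0.22 against 0.02 for all genes, and 35 had an unadjusted p under 0.05. The 6 were Rpl17, Rpl22l1, Rpl34, Rpl35a, Rps27 and Rps28. Rpl22l1 averaged 66.4 ± 28.2 reads in mutants and 36.4 ± 22.4 in controls, and Rps28 757 ± 150 in mutants and 517 ± 197 in controls (log2 1.05 ± 0.27 and 0.67 ± 0.17; adjusted p = 0.0212 and 0.022). In each of these 2 genes the groups overlapped. No member passed within either experiment or by edgeR, 8 passed by DESeq2, 1 passed without the libraries of low mitochondrial share, and leaving out 1 library gave 0 to 24. It was 2 without mutant replicate 1 or 4 and 0 without mutant replicate 5; it was 24 without control replicate 2, 3 without replicate 3 or 5, 1 without replicate 4 and 0 without replicate 1.
At 24 h 0 members were called by limma and by edgeR, 1 by DESeq2, and 1 had an unadjusted p under 0.05, against 1.11 percent of all genes higher and 2.4 percent lower (3.5 percent in either direction).
At 48 h, 10 were higher in mutants and 1 lower, against 12.7 and 15.2 percent of all genes (27.9 percent in either direction), so the share higher was near that of all genes. On the mutant side these fold changes, and those of single genes below, rest on the 3 libraries of AS_3rd_LPS. The other 2 mutant libraries came from an experiment with no other group in that table. The reads printed for mutants include these 2. Of the 82, 64 fold changes were above 0, with a median of 0.23 against 0.01 for all genes, and 24 had an unadjusted p under 0.05. DESeq2 called 17 and scaling by library totals 24, and leaving out 1 library gave 6 to 15, with 6 without mutant replicate 1 or 3 or control replicate 4. Within AS_3rd_LPS 25 were higher and 1 lower, against 40.1 percent of all genes called in either direction.

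The member lower in mutants at 48 h was Rpl13a, a large-subunit protein known in human monocytes to leave the ribosome after interferon gamma and to block translation of inflammatory mRNAs. It had 30.2, 34.2, 45.5, 49.9 and 69.0 normalised reads in Il10ra mutants and 92.3 to 158.1 in controls (median 107.5, n = 6). Every mutant library lay below every control library. The log2 fold change was −1.24 ± 0.28 (adjusted p = 0.000572), and it stayed negative and called in each alternative run.
Rpl13a was also set against untreated libraries of each genotype, though the difference between these responses was not tested. In controls at 48 h, by the separately scaled table of controls, it had 129 reads, against 64.5 without LPS (log2 0.94, adjusted p = 0.0153), a call lost without the fifth or sixth untreated library. In mutants at 48 h it had 45.7 ± 15.3 reads, against 59.9 without LPS, which missed the threshold (log2 −0.28, adjusted p = 0.496), and at 24 h it fell to 37.5 reads (log2 −0.68, adjusted p = 0.0122; −0.35 and not called within AS_2nd_exp).
In Il10ra-Tnf mutants Rpl13a had 113.1 to 197 reads at 48 h (median 167.7, n = 4), against 55.6 to 92.2 without LPS, so the groups did not overlap (log2 1.14, adjusted p = 2.53e-05). The doubly floxed controls had 99.0 to 177 reads at 48 h, against 45.2 to 75.6 without LPS (log2 1.29, adjusted p = 1.38e-07). The 2 genotypes of that table did not differ past the threshold at 48 h (log2 0.12, adjusted p = 1).

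Among the members higher in Il10ra mutants at 48 h, Rpl5 had 384, 393, 472, 515 and 531 reads in mutants and 220 to 331 in controls (median 260), with no overlap (log2 0.65 ± 0.14, adjusted p = 0.000539). Rps23, a small-subunit protein of the decoding centre, had 675 to 910 reads in mutants and 416 to 604 in controls, again with no overlap (log2 0.57, adjusted p = 0.00289). Rpl8 averaged 2490 ± 283 reads in mutants and 1680 ± 190 in controls (log2 0.65 ± 0.18, adjusted p = 0.00565). Rps4x averaged 547.5 ± 218 reads in mutants and 390 ± 121 in controls, with overlapping libraries (log2 0.86 ± 0.32, adjusted p = 0.0355). In the same comparison 9 of 10 microglia markers were lower and 3 of 9 neutrophil markers higher in mutants. Microglia markers together took 0.917 to 1.47 percent of the reads in mutants and 2.13 to 2.50 percent in controls, and neutrophil markers 0.00283 to 0.120 percent in mutants and 0.00235 to 0.0229 percent in controls; their part in it was not tested.

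In Il10ra-Tnf mutants against doubly floxed controls Rpl7 alone was called, at 6 h, against 0.0516 percent of all genes higher and 0.043 percent lower. Rpl7 is one of the genes that were over 4-fold lower in DKO_post_LPS. It had 24.3, 38.6, 371, 427, 495 and 590 reads in mutants, against 10.5, 15.1, 298, 305 and 329 in controls (log2 0.80 ± 0.17, adjusted p = 0.0425). The low values are those of DKO_post_LPS, and no member passed within either experiment. In this comparison 17 of 83 members had an unadjusted p under 0.05, DESeq2 called 6, and scaling by library totals called 0. Without 1 library at a time 0 to 3 members were called: 3 without mutant replicate 3, and 0 without mutant replicate 1, 2, 5 or 6 or control replicate 1, 2 or 4. Of the 83 fold changes at 6 h, 40 were above 0, with a median of −0.009 against −0.010 for all genes. At 48 h 0 members were called by limma, 2 had an unadjusted p under 0.05, and edgeR and DESeq2 called 0, against 0 percent of all genes higher and 0.0172 percent lower. Only 11 of the 83 fold changes were above 0 at 48 h, with a median of −0.155 against −0.005 for all genes.

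At day 7 a few ribosomal protein genes were called above the untreated level in controls, depending on how the experiments were set against each other. Against the mean of the 6 untreated libraries, a form chosen after the first one had called 0 members, of 82 members 7 were higher and 0 lower, against 3.14 percent of all genes higher and 0.955 percent lower (4.1 percent in either direction), and 68 fold changes were above 0 with a median of 0.29. Among them were Rpl11, Rpl13, Rps9, Rps20 and Rpsa. Rpl13 had 755, 772, 883 and 1062 reads at day 7, against 271 to 543 without LPS (median 408), with no overlap (log2 1.10, adjusted p = 0.000272).
The day 7 libraries came from an experiment of their own, so the experiment and the time cannot be told apart. At the level of the experiment Anat_LPSchallenged, the first form, 0 members were called and Rpl11 had a log2 fold change of −0.013; at the level of AS_3rd_LPS 4 were higher and 2 lower. They also held markers of other cells: 8 of 9 neutrophil, 5 of 5 erythroid, 6 of 7 monocyte and 6 of 7 border macrophage markers were higher than without LPS. Neutrophil markers together took 0.222 to 1.60 percent of the reads at day 7 and 0.000539 to 0.0747 percent without LPS, and erythroid markers 0.139 to 0.308 percent at day 7 and 0 to 0.0236 percent without LPS. Monocyte markers took 0.0195 to 0.0589 percent at day 7 and 0.00154 to 0.00344 percent without LPS, and border macrophage markers 0.0806 to 0.138 percent at day 7 and 0.0750 to 0.0898 percent without LPS. Most of the border macrophage share was Stab1, which was not called (987 ± 175 reads at day 7, 919 ± 82.7 without LPS). The other 6 averaged 19.4 to 103 reads at day 7 and 0.273 to 7.69 without LPS. Their part in the result was not tested. Without the first day 7 library 1 member was called, without the second 4, and without the sixth untreated library 4.

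Genes that act with the ribosomal proteins were read from lists of the same kind. Shares of all genes called in these comparisons are given above. Of 44 ribosome biogenesis genes, which make and fold ribosomal RNA and subunits, 39 rose in Il10ra controls at 6 h (median log2 1.73), 29 at 24 h (0.76) and 2 at 48 h (0.14). In Il10ra mutants 41 rose at 6 h (1.54), 38 at 24 h (1.10) and 37 at 48 h (1.11). Mutants against controls at 48 h had 37 of 44 higher and 0 lower, with a median of 1.03. The ribosomal protein genes, with 10 of 82 higher in that comparison, had a median of 0.23. Nucleolin (Ncl), which acts in ribosomal RNA processing, averaged 720 ± 157 reads in mutants at 48 h and 251 ± 26.4 in controls (log2 1.52 ± 0.19, adjusted p = 4.11e-08).
In the Il10ra-Tnf table the biogenesis genes rose at 6 h, 40 of 44 in mutants and 41 in doubly floxed controls. At 48 h 5 rose and 1 fell in mutants and 3 rose and 2 fell in controls, with medians of 0.16 and 0.09, while the medians of the ribosomal protein genes were 0.66 and 0.73.

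**Figure D5:**
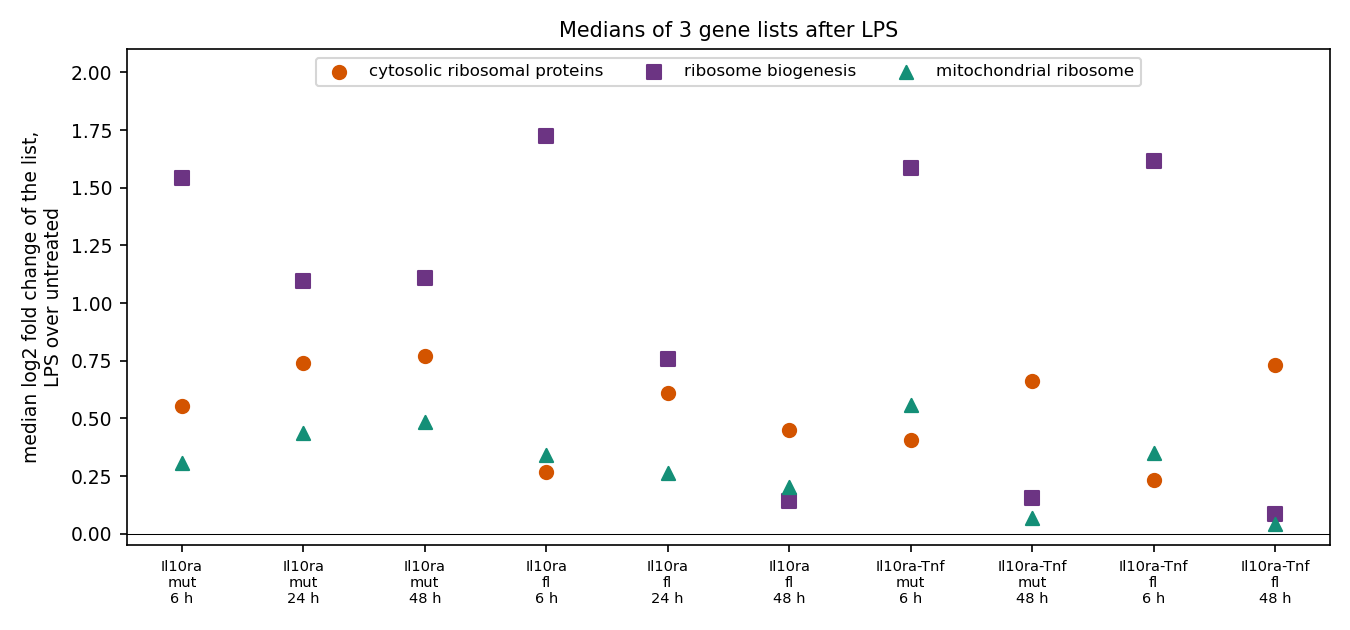
Median log2 fold change after LPS over untreated microglia (vertical axis) of the ribosomal protein genes (circles), 44 ribosome biogenesis genes (squares) and 73 mitochondrial ribosome genes (triangles), by genotype and time. At 6 h the biogenesis medians are the highest, at 1.54 to 1.73; at 48 h they are 1.11 in Il10ra mutants and 0.09 to 0.16 in the other genotypes, where the ribosomal protein medians are 0.45 to 0.73.

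Of 73 tested genes of the mitochondrial ribosome, a separate particle that translates mitochondrial mRNAs, 31 rose and 2 fell in Il10ra mutants at 48 h, and 4 rose and 1 fell in controls. Among all genes 17.7 percent rose and 17.9 percent fell in these mutants, and 11.1 and 7.9 percent in these controls. In the Il10ra-Tnf table at 48 h, 6 rose and 1 fell in mutants and 9 rose and 1 fell in controls. Among all genes 11.3 percent rose and 7.11 percent fell in these mutants, and 13.7 and 9.99 percent in these controls. Of 21 other ribosomal and TOP-type translation genes 14 rose in Il10ra mutants at 48 h, 6 in Il10ra controls, 10 in Il10ra-Tnf mutants and 15 in doubly floxed controls, and none fell. Rack1, a small-subunit protein outside the naming rule, averaged 1696 ± 171 reads in Il10ra mutants at 48 h, against 949 ± 47.9 without LPS (log2 0.99 ± 0.13, adjusted p = 8.06e-08).
Myc, a transcription factor of growth genes, had 213 ± 63.9 reads in Il10ra controls at 6 h, against 36.9 ± 8.21 without LPS (log2 2.53 ± 0.33, adjusted p = 4.94e-07). At 48 h it had 139 ± 50.8 reads in Il10ra mutants, against 37.5 ± 13.1 (log2 1.60 ± 0.32, adjusted p = 8.88e-05). In Il10ra-Tnf mutants at 48 h it had 47.3 ± 35.5 reads, against 52.8 ± 32.4 (log2 −0.30 ± 0.25, adjusted p = 0.46). Mutants and controls of Il10ra did not differ past the threshold in Myc at 48 h (log2 0.48 ± 0.30, adjusted p = 0.24). Myc was taken from a list of growth control genes, of which 29 were tested. In this list 9 rose and 4 fell in Il10ra controls at 6 h (median log2 0.17). At 48 h, 7 rose and 3 fell in Il10ra mutants (0.16), and 3 rose and 3 fell in Il10ra-Tnf mutants (−0.02).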

How the data were processed

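The authors deposited signal, as reads normalised between libraries, in 4 tables (26, 48, 38 and 19 libraries). Per the labels' protocols the libraries were made by MARS-seq, and the genome build named in the submitters' processing notes is mm10. Aligner, counter and size factors: not given in the sources used here. Each library's values were whole multiples of 1 read in 100 percent of cases (tolerance 0.01). Each table was scaled separately: control levels beside Il10ra mutants come from the mutant table, other Il10ra control levels from the control table.

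Groups came from the labels. A gene was tested if 5 or more normalised reads were found in a number of libraries equal to the smallest group (never under 2). Tests were run by limma 3.58.1 (R 4.3.3) with trend on log2(value + 1), with terms for group and for the experiment named in the labels, and adjusted by Benjamini-Hochberg over all genes of a comparison (threshold 0.05). Fold changes of low genes are understated on this scale. Nothing states that replicates are separate animals, so p-values measure the spread between these samples, which may be technical. Reported means are unadjusted for experiment, and those of Il10ra mutants at 48 h include 2 libraries on which no fold change rests. Untreated means of Il10ra controls hold all 6 libraries, also where the fold change rests on those of a single experiment. Day 7 was set against the mean of the 6 untreated control libraries; this was chosen after seeing that the first form of the contrast, at the level of an experiment without untreated controls, called 0 members. The text names, per comparison, up to 4 called members at each end of the fold changes with a mean of at least 20 in 1 group, paralogue pairs, and members with roles of their own (stalk, 5S particle, Rpsa, Rps6, Rpl13a and others); members and Rack1 described outside that rule were picked with their values in view. Members and lists were chosen with earlier results of these data known. edgeR 4.0.16 and DESeq2 1.42.0 on recovered reads, other scaling, pseudocount 5, no filter, a replicate block, single experiments and leaving out libraries were alternatives. Same-numbered replicates did not deviate together in every pair, so numbers were not taken to pair samples. The fit was tested on simulated data. ATAC peak lists (20 libraries) were not used. Some members that met the naming rule are not reported here.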

Additional observations from a re-analysis of the deposited data

Results flagged for a closer look

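In 256 groups of 4 to 10 libraries, the lowest or highest library was set against the others for the share of reads in ribosomal protein genes and for 16 members given in every sample; in 14 groups a library stood apart, and chance flags about 1 in 20 groups. Of these, 6 lay in Il10ra mutants at 6 h, where the highest value was 586 normalised reads for Rpl22 (next 411), 124.3 for Rpl22l1 (next 77.5), 317 for Rpl36a (next 174), 445 for Rpl39 (next 186), 452 for Rpl7 (next 313) and 508 for Rps4x (next 365). In untreated Il10ra mutants the highest library had 288 reads for Rpl39 (next 209) and 88.1 for Rpl7l1 (next 62.3), and at 48 h 137.96 for Rps4l (next 74.5). In Il10ra controls the highest library had 229 reads for Rpl36a at 6 h (next 146.3) and 71.4 for Rps4l at 24 h (next 40.0), and the lowest had 218 for Rpl39 at 48 h (next 385) and 23.8 for Rpl15 at day 7 (next 40.4). In untreated Il10ra-Tnf mutants the highest library had 40.1 reads for Rpl15 (next 17.5).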

How the results depend on the processing

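Over alternatives other than leaving out 1 library, 147 results stayed the same and 36 moved. Most were counts of called members, which had to stay within 1.5 times. The others were group shares of ribosomal protein reads without mitochondrial transcripts in the total, which had to differ by less than the SD. Without the experiment term the counts were 26 and 17 in Il10ra-Tnf mutants (48 h and 6 h), 35 and 12 in doubly floxed controls, 0 between these at 6 h and 1 in Il10ra mutants against controls at 6 h. Within the experiment of most libraries they were 24 and 18, 36 and 11, and 0 in the same order, then 19 and 14 in Il10ra controls at 24 h and 6 h, 36 in Il10ra mutants at 6 h, and 26 and 0 in mutants against controls at 48 h and 6 h. Within the other shared experiment they were 24 in Il10ra-Tnf mutants and 40 in doubly floxed controls at 48 h, 0 in each genotype comparison at 6 h and 30 in Il10ra mutants at 24 h. DESeq2 gave 12 at day 7, 17 and 1 in Il10ra mutants against controls at 48 h and 24 h, and 6 in the double mutants against controls at 6 h; edgeR gave 0 in Il10ra mutants against controls at 6 h. Scaling by library totals gave 24 and 3 (48 h, 6 h) in Il10ra mutants against controls and 0 in the double mutants against controls at 6 h, and moved the median of all genes by up to −0.19 (Il10ra mutants at 6 h). The replicate block gave 39 in Il10ra mutants at 48 h, 4 in mutants against controls at 48 h and 4 at day 7. Without the libraries of low mitochondrial share 50 passed in controls at 48 h, 11 at day 7 and 1 in mutants against controls at 6 h. With day 7 set at the level of Anat_LPSchallenged 0 members passed and Rpl11 had a log2 fold change of −0.013; at AS_3rd_LPS 6 passed (4 higher, 2 lower) and at AS_2nd_exp 7. Leaving out 1 library gave 32 to 49 and 30 to 49 in Il10ra-Tnf mutants (48 h, 6 h), 57 to 67 and 16 to 24 in doubly floxed controls, 0 to 3 between them at 6 h, 68 to 74, 47 to 61 and 59 to 66 in Il10ra mutants (24 h, 48 h, 6 h), 29 to 46, 25 to 37, 22 to 27 and 1 to 9 in Il10ra controls (24 h, 48 h, 6 h, day 7), and 0 to 1, 6 to 15 and 0 to 24 between these (24 h, 48 h, 6 h). For named members, under alternatives other than leaving out 1 library, 1323 values kept direction and call, 224 lost the call and 1 reversed; leaving out 1 library, 1908 kept both and 164 lost the call. The causes were not tested.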

Other observations

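In 4 untreated C57BL/6 libraries, which came from an experiment of their own and entered no comparison, ribosomal protein genes took 5.32 to 6.21 percent of the reads (median 5.82). The library at 48 h whose labels name 2 genotypes had 7.66 percent.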
